A study of Mus musculus with 12 samples.

Results

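The mRNAs of heat shock, DnaJ and chaperonin proteins were examined in RNA-Seq of gradient fractions from the mouse mammary carcinoma cell line 4T1. The 85 members, of 55376 genes in the count file, were all genes whose symbol starts with Hspa, Hspb, Hspd, Hspe, Hsph or Hsp9, with Dnaja, Dnajb or Dnajc and a number, or with Cct2 to Cct8, together with Tcp1. The 15 names that hold -ps, the mark of a pseudogene, were left out. By the compartment of the protein, 2 members were cytosolic HSP90 genes, 12 cytosolic HSP70 or HSP110 genes, 8 small heat shock protein genes, 15 cytosolic J protein genes, 14 genes of the endoplasmic reticulum (ER), 10 mitochondrial genes and 9 genes of the chaperonin TRiC and its relatives. Hspbp1, an exchange factor of HSP70, was counted with the HSP70 genes. Hspb11, which carries the name only, was counted with the small heat shock protein genes. The remaining 15 were J proteins of other or uncertain place and other proteins that carry the name only. Mock cells held the empty pBICEP-CMV-2 vector and METTL7A1 cells the same vector with FLAG-tagged METTL7A1, a methyltransferase-like protein, under the CMV promoter, and both were selected with G418. The sources used here do not say whether either line was 1 clone. All cells received cycloheximide at 0.1 mg/ml for 5 min before lysis, which holds ribosomes on the mRNA. RNA of gradient fractions 3 to 7 (free subunits and monosomes, here sub-polysomal) and of fractions 8 to 11 (polysomal) was sequenced for replicates A to C of mock and D to F of METTL7A1 cells, 12 libraries in all. Replicate letters A, B and C are mock and D, E and F METTL7A1 throughout.

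Libraries held between 1817520 and 6966156 counts, the fewest in mock sub-polysomal replicate A, where 3 counts equal 1.69 CPM, the count scaled to library size. Mettl7a1, the transfected gene, ranged from 4 to 24 counts where the vector was empty and from 989 to 2436 where it held METTL7A1. The 5 epithelial carcinoma markers summed to between 1878 and 4197 CPM and were highest in METTL7A1 polysomal RNA (3630 to 4197 CPM, against 2350 to 2786 CPM in mock polysomal RNA). Markers of fibroblasts, leukocytes and endothelium summed to at most 6.01, 0.332 and 0.822 CPM, with Col3a1, Pdgfrb, Cd3e, Adgre1 and Kdr at 0 counts in each library. Levels in the text are CPM scaled by edgeR's TMM method, and levels of different genes are compared only as CPM per kilobase of exon (RPKM). Of the 85 members, 65 reached 1 CPM in at least 3 libraries and were tested with 12224 genes in all. A member is said to rise, fall or change when the adjusted p-value from edgeR's quasi-likelihood test was below 0.05. Each library was scaled by its total and a TMM factor, and these factors were computed over the 12 libraries of both pools together. A value is thus a level relative to the other mRNAs, not an exact share of a pool and not an amount per cell. In bulk RNA, fewer cells that make an mRNA and less of that mRNA per cell cannot be told apart. The labels do not state whether replicates came from separate cultures. The paper describes its polysome profiles of these 4T1 lines as independent fractionations of biological triplicates, without naming the sequenced replicates. The p-values measure the spread between these samples, which may be technical.

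Chaperones keep other proteins folded. HSP70 proteins bind exposed hydrophobic stretches in cycles of ATP hydrolysis, J proteins (DnaJ, or HSP40) deliver the client and start the hydrolysis, and HSP90 finishes the folding of kinases and receptors. HSP110 proteins exchange the nucleotide of HSP70, and small heat shock proteins hold unfolded clients without ATP. TRiC, a double ring of related subunits each from its own gene, folds actin, tubulin and many WD40 proteins in a closed chamber. Mitochondria have their own chaperonin, of HSP60 (Hspd1) with its lid HSP10 (Hspe1), and the ER has its own HSP70 (Hspa5, BiP) and HSP90 (Hsp90b1, GRP94). Cytosolic heat shock genes are driven by HSF1, and the ER genes by the unfolded protein response.

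The members spanned a wide range of levels. The highest mean over the 12 libraries was 710.4 RPKM for Hspe1, followed by Hsp90ab1 with 646 RPKM, Hspa8, the constitutive HSP70, with 399 RPKM, Hspa5 with 398 RPKM and Cct5 with 379 RPKM. These means average 2 gradient pools and are not levels in whole cells. Hspe1 had 1238 (mock) and 1073 RPKM (METTL7A1) in sub-polysomal RNA, but 289 and 242 RPKM in polysomal RNA. In polysomal RNA Hsp90ab1 was higher, with 894 and 849 RPKM. All 8 TRiC subunits tested lay between 174 RPKM (Tcp1) and 379 RPKM (Cct5). Among J proteins the highest mean was that of Dnajc8, with 91.6 RPKM, followed by Dnaja2, a main cytosolic partner of HSP70, with 86.9 RPKM. The heat-inducible HSP70 gene Hspa1b had 3.53 RPKM. Hspb1, the gene of HSP25, had 0 counts in each of the 12 libraries, which allows up to 1.69 CPM in the shallowest of them by a limit of 3 counts that covers counting error only. Of its transcript's 50-base stretches, 58.9% occur also in the pseudogene Hsp25-ps1, which was at 0 as well, and how the counting treated reads that match several genes is not given in the sources used here. The same holds for Hspa1b and Hspa1a, with 62.3% of the stretches of Hspa1b shared, for Hspa8 with 73.2% and for Hsp90aa1 with 65.6%, whose levels are uncertain for that reason. Hspe1, with the highest mean, has 36.1% of its stretches in other genes and Hspd1 44.8%, so their levels are uncertain as well.

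The first question was which chaperone mRNAs lay in heavy and which in light fractions. Most TRiC mRNAs, both cytosolic HSP90 mRNAs, the HSP110 mRNAs Hspa4, Hspa4l and Hsph1 and the HSP70 mRNA Hspa14 were higher in polysomal RNA in both genotypes, Hspa8 and Hspa1b passed in neither, and several mRNAs of mitochondrial and small heat shock proteins were lower. In mock cells 37 of 65 members differed by pool, with 23 up and 14 down in the polysomal fractions, against 23.3% higher and 23.7% lower among all genes tested. In METTL7A1 cells 47 changed, 33 higher and 14 lower, against 30.0% and 29.3% of all genes. The median log2 polysomal to sub-polysomal ratio was 0.23 in mock and 0.39 in METTL7A1 cells, beside 0.054 and 0.058 for all genes tested. At the study's limits for RNA-Seq (log2 change past 1.5 either way, adjusted p under 0.01) 3 members passed in mock (7.55% of all genes did) and 11 in METTL7A1 cells (12.1%). The pool comparisons within each genotype share no library, but each shares its libraries with the genotype comparisons given further on.

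The 3 highest and 3 lowest ratios, averaged over the genotypes, belonged to proteins of different size. Dnajc13, an endosomal J protein and the longest member, had 11.9, 12.0 and 7.70 CPM in mock sub-polysomal RNA and 33.3, 22.5 and 25.2 CPM in mock polysomal RNA, for a log2 ratio of 1.42 (standard error 0.21, adjusted p = 2.86e-05). Its METTL7A1 libraries gave 6.96, 7.69 and 5.26 CPM and 28.8, 25.8 and 23.7 CPM, for a log2 ratio of 1.98. The pools did not overlap in either genotype. Cct7 followed with log2 ratios of 1.22 in mock and 1.59 in METTL7A1 cells, and Dnajc7, a tetratricopeptide J protein that links HSP70 and HSP90, with 0.97 and 1.67. At the other end stood Hspe1, with 1209, 1067 and 599.5 CPM in mock sub-polysomal RNA against 169, 220.2 and 281 CPM in mock polysomal RNA, for a log2 ratio of -2.10 (standard error 0.23, adjusted p = 1.30e-06). In METTL7A1 cells Hspe1 had 779, 901 and 811 CPM against 178, 201 and 183 CPM, and the log2 ratio was -2.15. Every sub-polysomal library was above every polysomal one, although mock replicate C had the lowest sub-polysomal value. Dnajc19, a subunit of the inner membrane import motor, gave -1.78 and -2.17, and the small heat shock protein Hspb2 gave -1.90 and -2.03. All of these calls held under each alternative tried.

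Coding length went with these ratios. Across the 63 tested members with an annotated coding sequence, Spearman's rho of the log2 ratio with coding length was 0.641 in mock and 0.731 in METTL7A1 cells, and across 10842 genes tested it was 0.546 and 0.537. These points share the same libraries and are genes, not replicates. The 9 members under 600 bases of coding sequence had a median log2 ratio of -0.86 in mock and -1.43 in METTL7A1 cells. From 600 to 1200 bases the medians of 21 members were -0.13 and -0.13, from 1200 to 1800 bases those of 18 members were 0.47 and 1.11, and from 1800 bases on those of 15 members were 0.35 and 0.97. The values of all genes in the same 4 classes were -0.88, -0.071, 0.16 and 0.46 in mock and -1.13, -0.11, 0.22 and 0.57 in METTL7A1 cells. The class from 1200 to 1800 bases held the TRiC subunits other than Cct6a, for which no coding length was at hand.

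**Figure D1:**
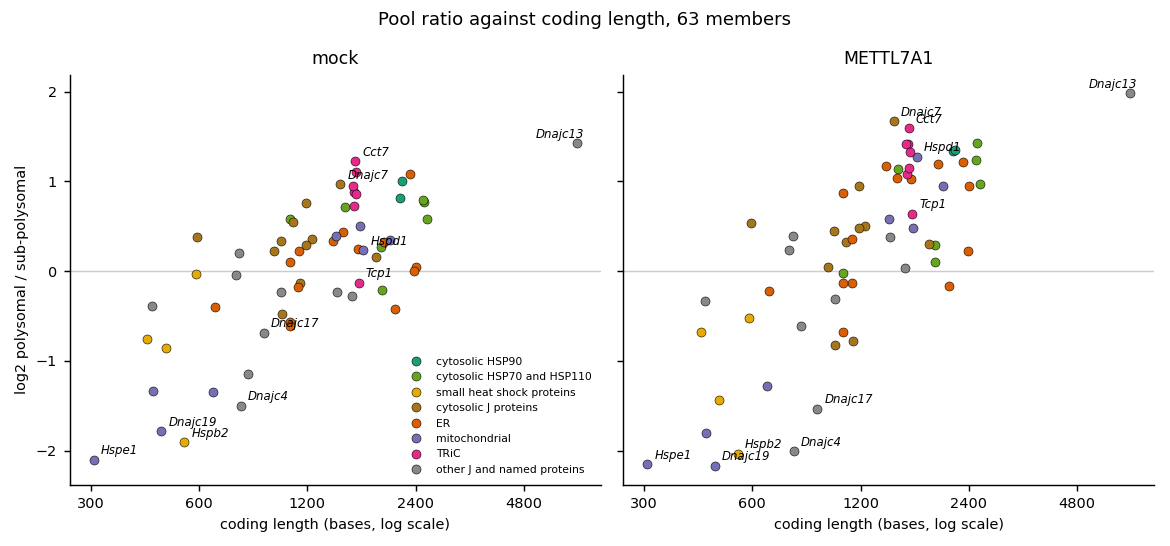
Log2 polysomal to sub-polysomal ratio (vertical axis) against coding length in bases (horizontal axis, log scale) of 63 members in mock (left) and METTL7A1 cells (right), 1 point a gene, coloured by protein group. Hspe1, with the shortest coding sequence, lies lowest in mock cells, and Dnajc13, with the longest, lies highest in both panels.

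The second question was whether the level of these mRNAs within a pool differed between METTL7A1 and mock cells. Genotype and stably transfected line coincide here, so METTL7A1 and other differences between the lines cannot be told apart. In METTL7A1 cells, 7 ER chaperones rose in polysomal RNA. In sub-polysomal RNA of these cells 5 TRiC subunits, Hsp90ab1 and the HSP110 genes Hspa4 and Hspa4l fell. In polysomal RNA 17 of 65 members changed, 12 higher and 5 lower in METTL7A1 cells, where 9.69% of all genes were higher and 8.28% lower. In sub-polysomal RNA 27 changed, 11 higher and 16 lower, where 16.8% of all genes were higher and 14.5% lower. The median log2 change of the members was -0.0022 for polysomal and -0.19 for sub-polysomal RNA, beside -0.014 and -0.0015 for all genes. At the study's limits 1 member passed in polysomal RNA (Hspb8; 2.13% of all genes passed) and 2 in sub-polysomal RNA (Hspb8 and Hspa4l; 2.76%). The split depended on the scaling. When Actb counts set the scale of the libraries, the median change of all genes moved by 0.26 in sub-polysomal and 0.096 in polysomal RNA, and the members' calls became 14 higher and 6 lower in sub-polysomal and 12 higher and 2 lower in polysomal RNA. Relative to that median of all genes, the members' median in sub-polysomal RNA was -0.20 with Actb scaling and -0.19 with TMM. In polysomal RNA, leaving out mock replicate A gave 26 changed members and leaving out METTL7A1 replicate D or E gave 11, and in sub-polysomal RNA leaving out D or E gave 17. Shares of all genes called with Actb scaling or with replicates left out are not given here, so these counts cannot be set against a background.

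**Figure D2:**
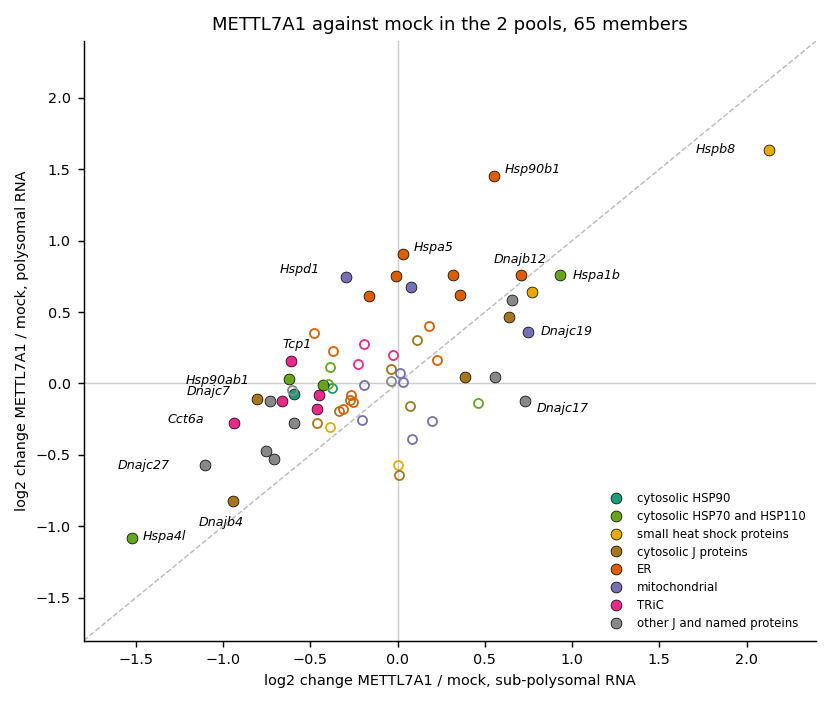
Log2 change of METTL7A1 against mock in sub-polysomal RNA (horizontal axis) and in polysomal RNA (vertical axis) for the 65 members tested, 1 point a gene, coloured by group; filled points changed in at least 1 pool, open points in neither, and the dashed line marks equal changes. Of the 14 ER genes 11 lie above 0 on the vertical axis, with Hsp90b1 at 1.45, all 8 TRiC genes lie left of 0 on the horizontal axis (3 lie right of it with Actb scaling), and Hspb8 and Hspa4l lie at opposite ends.

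All 8 TRiC subunits tested had a negative log2 change in sub-polysomal RNA of METTL7A1 cells, from -0.94 to -0.029. Of these 5 fell, where 14.5% of all genes did with TMM scaling. With Actb scaling, for which that share is not given, 3 of the 8 were above 0 and 1, Cct6a, was called. The median of the 8 relative to all genes was -0.45 with either scaling. Cct6a, the zeta subunit, had 266, 268 and 279 CPM in mock and 136, 138 and 149.7 CPM in METTL7A1 sub-polysomal RNA, a log2 change of -0.94 (standard error 0.15, adjusted p = 1.42e-04). The values of each genotype lay close together and far from those of the other, and this fall held under every alternative. Cct5, the epsilon subunit, had 476, 573 and 579 CPM in mock and 331, 366 and 334 CPM in METTL7A1 sub-polysomal RNA, a log2 change of -0.66 (standard error 0.16, adjusted p = 0.00425). Tcp1, the alpha subunit, had 578, 533 and 549 CPM and 334, 373 and 379 CPM, a log2 change of -0.61 (standard error 0.14, adjusted p = 0.00262). Neither overlapped between genotypes, and both calls were lost only with Actb scaling (-0.40, adjusted p = 0.0784, and -0.36, adjusted p = 0.0935). Cct3, the gamma subunit, fell as well (-0.46, adjusted p = 0.0281), a call lost with Actb scaling (adjusted p = 0.385), without the filter on low counts (0.0665) and without replicate B (0.0591) or C (0.0748) or D (0.0903) or E (0.0694) or F (0.0984). So did Cct7, the eta subunit (-0.45, adjusted p = 0.0421), lost with Actb scaling (adjusted p = 0.463), without the filter on low counts (0.0815) and without replicate B (0.0644) or C (0.0764) or D (0.1000) or E (0.0592) or F (0.183). Cct2, Cct4 and Cct8, the beta, delta and theta subunits, had -0.19, -0.22 and -0.029 and did not pass.

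In polysomal RNA none of the 8 subunits changed with edgeR, none had an unadjusted p-value below 0.05, and DESeq2 and limma-voom called 0. Cct6a had 618, 441 and 489 CPM in mock and 424, 446 and 405 CPM in METTL7A1 polysomal RNA (log2 change -0.28, 95% interval -0.58 to 0.020). Cct5 had 1193, 844 and 972 CPM and 924, 991 and 843 CPM, and Tcp1 544, 481 and 493 CPM and 546, 616 and 530.4 CPM. The groups overlapped for Cct5, with mock replicate A highest, and for Cct6a the METTL7A1 values reached into the mock range only at its lower end. Mock replicate A had the highest mock polysomal value of every TRiC subunit. Without it Cct2 (0.45, adjusted p = 0.0194), Cct8 (0.42, adjusted p = 0.0172) and Cct4 (0.32, adjusted p = 0.0491) rose in METTL7A1 polysomal RNA. The summed level of the 9 genes was 2998 to 3019 CPM in mock and 2140 to 2324 CPM in METTL7A1 sub-polysomal RNA, and 4553 to 6253 CPM and 4942 to 5746 CPM in polysomal RNA. In mock cells Tcp1 had a log2 pool ratio of -0.13 (adjusted p = 0.461, 95% interval -0.42 to 0.16), and the other 7 subunits were higher in polysomal RNA by 0.72 to 1.22. In METTL7A1 cells all 8 were higher in polysomal RNA, by 0.64 to 1.59. Cct6b, a testis form of the zeta subunit, had 11 counts in all and was not tested.

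**Figure D3:**
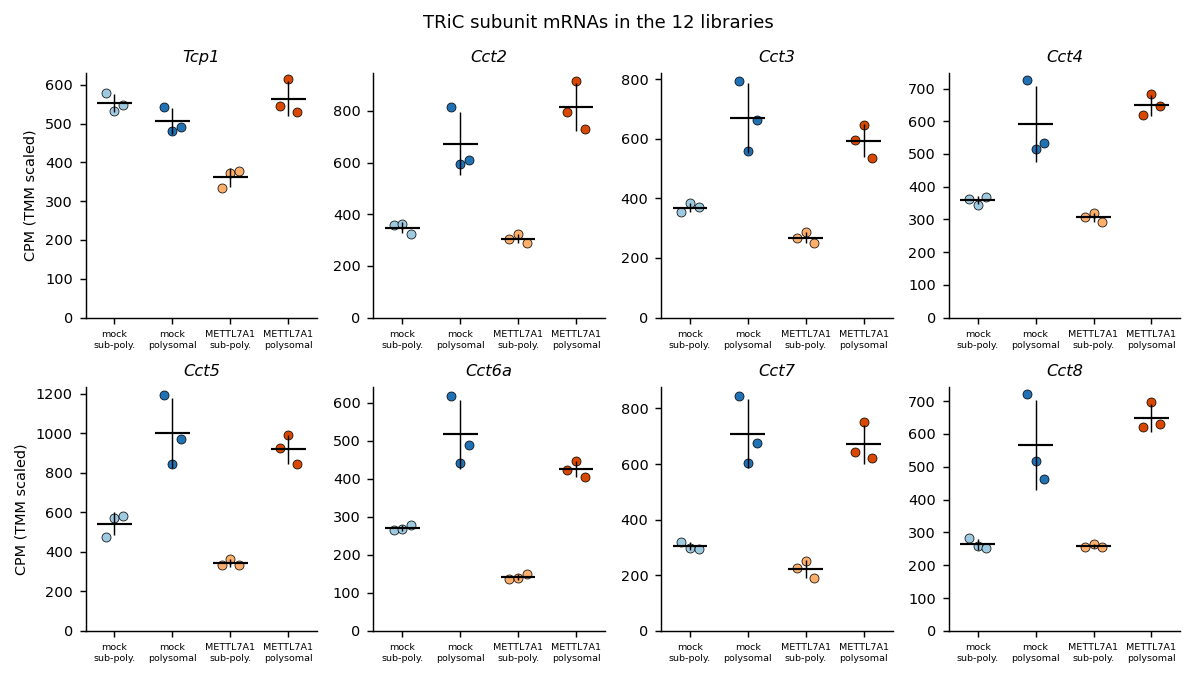
Level in CPM (vertical axes, each from 0) of the 8 TRiC subunit mRNAs tested in the 4 groups, 1 point a library, with the mean as a horizontal line and the SD (n = 3) as a vertical line. In the METTL7A1 sub-polysomal group Cct6a sits at 136, 138 and 149.7 CPM, below the 266, 268 and 279 CPM of mock, and the polysomal groups overlap.

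Of the cytosolic HSP90 and HSP70 genes, Hsp90ab1, Hspa4 and Hspa14 also fell in sub-polysomal RNA. Hsp90ab1, the constitutive HSP90, had 1334, 1285 and 1211 CPM in mock and 894, 854 and 785 CPM in METTL7A1 sub-polysomal RNA. These groups did not overlap, and the log2 change was -0.60 (standard error 0.17, adjusted p = 0.0123), which was lost with Actb scaling (-0.34, adjusted p = 0.168) and without METTL7A1 replicate E (adjusted p = 0.0582). In polysomal RNA its log2 change was -0.075 (95% interval -0.43 to 0.28). Hsp90aa1, the inducible HSP90, did not pass in either pool (-0.37 and -0.033). Hspa4, an HSP110 nucleotide exchange factor, had 257, 179 and 175 CPM in mock and 135, 134 and 126 CPM in METTL7A1 sub-polysomal RNA, a log2 change of -0.62 (standard error 0.17, adjusted p = 0.00872) that Actb scaling ended (-0.38, adjusted p = 0.142). Hspa14, a ribosome-associated HSP70, fell in the same pool from 81.8, 68.0 and 64.2 CPM to 53.1, 57.1 and 47.3 CPM (log2 change -0.43, adjusted p = 0.0282), a call lost with Actb scaling (adjusted p = 0.474), without the filter on low counts (0.0991) and without replicate D (0.0750) or E (0.0573) or F (0.126). Hspa8 had 898, 1045 and 1266 CPM in mock and 798, 798 and 862 CPM in METTL7A1 sub-polysomal RNA, and 931, 949 and 901 CPM and 1041, 999 and 978 CPM in polysomal RNA. Its changes were -0.39 (adjusted p = 0.0620) and 0.12 (adjusted p = 0.644), and in sub-polysomal RNA it passed with DESeq2 (adjusted p = 0.00950), limma-voom (adjusted p = 0.0424), the filter of 10 counts in every library (adjusted p = 0.0480) and without mock replicate A (adjusted p = 0.00616).

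A pair of HSP70 family genes changed in both pools and in opposite directions. Hspa4l, an HSP110 protein, had 15.8, 12.0 and 21.9 CPM in mock and 4.31, 7.94 and 5.26 CPM in METTL7A1 sub-polysomal RNA, and 36.6, 28.7 and 23.8 CPM and 15.6, 12.8 and 13.6 CPM in polysomal RNA. The mock libraries were all above the METTL7A1 libraries in both pools, and the log2 changes were -1.52 (standard error 0.28, adjusted p = 4.94e-04) and -1.08 (standard error 0.20, adjusted p = 0.00103). Hspa1b rose from 6.21, 7.24 and 5.92 CPM to 11.6, 14.1 and 11.0 CPM in sub-polysomal RNA and from 7.10, 8.93 and 7.20 CPM to 11.4, 13.4 and 14.8 CPM in polysomal RNA. Its log2 changes were 0.93 (adjusted p = 0.00396) and 0.76 (adjusted p = 0.00538), at a low level in every library. The calls of both genes held under every alternative. Hsph1, the other HSP110 gene, had -0.40 in sub-polysomal RNA and passed there only without mock replicate C (adjusted p = 0.0226).

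Among the small heat shock proteins Hspb8, which pairs with the HSP70 co-chaperone Bag3 in autophagy of misfolded proteins, had the largest rise of all members. Its level was 41.8, 55.1 and 53.1 CPM in mock and 201, 227 and 236 CPM in METTL7A1 sub-polysomal RNA, and 50.9, 48.8 and 49.0 CPM and 139, 158 and 165 CPM in polysomal RNA. No METTL7A1 library overlapped a mock library. The log2 change was 2.13 (standard error 0.14, adjusted p = 1.34e-08) in sub-polysomal and 1.63 (standard error 0.14, adjusted p = 1.38e-07) in polysomal RNA, under all alternatives. Bag3 itself had 0.47 (adjusted p = 0.0509) and 0.34 (adjusted p = 0.121). Hspb2 rose in sub-polysomal RNA, from 6.77, 9.44 and 7.11 CPM to 12.9, 12.2 and 14.8 CPM (log2 change 0.77, adjusted p = 0.0201), a call lost without mock replicate C (adjusted p = 0.101) or METTL7A1 replicate D (adjusted p = 0.0533) or F (adjusted p = 0.0909). Hspb6 and Hspb11, an intraflagellar transport protein despite its name, did not pass between genotypes, although Hspb11 had -0.39 (adjusted p = 0.0659) in sub-polysomal RNA and passed there without mock replicate B (adjusted p = 0.0396).

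Of the 11 cytosolic J proteins tested, 2 rose and 2 fell in sub-polysomal RNA and 1 fell in polysomal RNA. Among all genes tested, 16.8% rose and 14.5% fell in sub-polysomal RNA and 8.28% fell in polysomal RNA. Dnajc7 had 90.9, 77.1 and 93.2 CPM in mock and 53.4, 46.6 and 49.3 CPM in METTL7A1 sub-polysomal RNA, a log2 change of -0.81 (standard error 0.15, adjusted p = 4.94e-04) that held under every alternative, while its polysomal values of 198, 151 and 163 CPM and 165, 167 and 142 CPM overlapped. Dnajb4, a relative of Dnajb1, fell in both pools, from 19.2, 10.4 and 10.9 CPM to 5.64, 6.70 and 7.17 CPM in sub-polysomal RNA (-0.94, adjusted p = 0.0136) and from 17.8, 18.4 and 11.8 CPM to 9.04, 7.96 and 10.1 CPM in polysomal RNA (-0.82, adjusted p = 0.0107). The polysomal call was lost without mock replicate B (-0.71, adjusted p = 0.0560) or METTL7A1 replicate E (-0.74, adjusted p = 0.0873), and the sub-polysomal one with Actb scaling (-0.70, adjusted p = 0.0812) and without mock replicate A (-0.71, adjusted p = 0.0548) or METTL7A1 replicate D (-0.86, adjusted p = 0.0597). Dnajb1, the heat-inducible J protein, rose in sub-polysomal RNA from 62.1, 92.2 and 78.4 CPM to 110.1, 93.3 and 104 CPM (0.39, adjusted p = 0.0444), a call lost without the filter on low counts (adjusted p = 0.0755), in a fit of the groups compared alone (0.0981) and without replicate A (0.151) or C (0.111) or D (0.153) or E (0.0746) or F (0.113). Dnajb2, a neuronal J protein with ubiquitin-interacting motifs, rose there from 24.8, 13.2 and 16.8 CPM to 30.2, 30.3 and 21.8 CPM (0.64, adjusted p = 0.0213), a call lost in a fit of the groups compared alone (adjusted p = 0.0508) and without replicate B (0.117) or C (0.0773) or D (0.0798) or E (0.112). Dnaja2 had log2 changes of -0.038 and 0.10, neither of which passed.

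The polysomal RNA of METTL7A1 cells held more of several ER chaperone mRNAs. Of 14 members tested 7 rose there with edgeR, where 9.69% of all genes rose, with a median log2 change of 0.51. In sub-polysomal RNA 2 rose, where 16.8% of all genes rose, with a median of 0.012. DESeq2 and limma-voom each called 8 higher in polysomal RNA. Their shares of all genes are not given here, so those counts cannot be set against a background. The summed level of the 14 was 2348 to 2806 CPM in mock and 4496 to 5997 CPM in METTL7A1 polysomal RNA, without overlap, and 2005 to 2696 CPM and 2313 to 2947 CPM in sub-polysomal RNA, with overlap. The epithelial markers were highest in the same METTL7A1 polysomal libraries, by the sums given above, and their part in this result was not tested. Hspa5 had 1342, 1149.8 and 1499.6 CPM in mock and 3044, 2256 and 2188 CPM in METTL7A1 polysomal RNA, against 1247, 904 and 1047 CPM and 1212, 1079 and 977 CPM in sub-polysomal RNA. Only the METTL7A1 polysomal libraries stood out, with log2 changes of 0.91 (standard error 0.18, adjusted p = 0.00194) in polysomal and 0.032 (adjusted p = 0.910) in sub-polysomal RNA. Hsp90b1 had 569.7, 489 and 619 CPM in mock and 1844, 1386 and 1368 CPM in METTL7A1 polysomal RNA, the largest polysomal rise of the group at 1.45 (standard error 0.19, adjusted p = 3.13e-05). In sub-polysomal RNA it had 681, 496 and 451 CPM and 935, 780.4 and 665 CPM (0.55, adjusted p = 0.0338), where mock replicate A was above METTL7A1 replicate F and the call was lost without mock replicate B (adjusted p = 0.105) or C (adjusted p = 0.144) or METTL7A1 replicate D (adjusted p = 0.143) or E (adjusted p = 0.0991). Dnajb11, the J protein that serves BiP in the lumen, had 168, 159 and 182 CPM and 328, 275 and 256 CPM in polysomal RNA, a log2 change of 0.76 (standard error 0.16, adjusted p = 0.00300), and -0.0082 in sub-polysomal RNA. METTL7A1 replicate D was the highest polysomal library for these 3 genes, and their polysomal calls held without it and under every other alternative.

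The rest of the ER group was mixed. Dnajb12, a membrane J protein of ER-associated degradation, rose in both pools alike, from 42.3, 43.1 and 43.6 CPM to 81.2, 64.3 and 66.5 CPM in sub-polysomal RNA (0.71, adjusted p = 0.00129) and from 34.3, 41.0 and 38.8 CPM to 71.2, 58.4 and 63.8 CPM in polysomal RNA (0.76, adjusted p = 7.33e-04). Dnajc25 and Dnajc14, both membrane J proteins, rose in polysomal RNA. Dnajc25 went from 14.7, 18.7 and 16.8 CPM to 30.5, 24.1 and 30.3 CPM there (0.76, adjusted p = 0.00183) and Dnajc14 from 50.1, 64.6 and 58.2 CPM to 91.0, 83.6 and 90.8 CPM (0.62, adjusted p = 0.00802). In sub-polysomal RNA they had 0.31 and 0.36, which passed with Actb scaling (adjusted p = 0.0378 and 0.0262) and, for Dnajc14, without mock replicate A (adjusted p = 0.0144). Dnajc1, which has its J domain in the lumen, rose in polysomal RNA by 0.61 (adjusted p = 0.00753). Dnajc3 (p58IPK), an inhibitor of the kinase PERK, had log2 changes of 0.23 (polysomal) and -0.37 (sub-polysomal), and Dnajb9 (ERdj4), which holds IRE1 inactive, had -0.083 and -0.27, and neither gene passed, apart from Dnajc3 in sub-polysomal RNA without METTL7A1 replicate D (adjusted p = 0.0243). Dnajc10, the disulfide reductase ERdj5, had 0.41 (adjusted p = 0.0520) in polysomal RNA. It passed there with DESeq2 (adjusted p = 0.0204), limma-voom (adjusted p = 0.0483) and without mock replicate A (adjusted p = 0.0161). Of the 7 members chosen as inducible by the unfolded protein response, 3 rose in polysomal RNA and 1 in sub-polysomal RNA. The shares of all genes that rose were 9.69% and 16.8%.

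The promoters of these genes were searched for the ER stress element, CCAAT and CCACG separated by 9 bases, on either strand from 250 bases before to 50 bases after the RefSeq start sites of GRCm38.p6. It was present in 3 of the 69 members with a promoter sequence, Hspa5, Hsp90b1 and Dnajc3, and in 0.137% of 27025 genes. The matches are shown because 2 of these genes rose in METTL7A1 polysomal RNA and the third did not, and capitals mark the element (in the second site of Hsp90b1 its reverse complement). A match is a description of the letters and not of a site in use.
Hspa5, chr2:34772020-34772049, plus strand: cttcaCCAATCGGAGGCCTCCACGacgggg
Hsp90b1, chr10:86705632-86705661, minus strand: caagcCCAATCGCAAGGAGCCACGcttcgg
Hsp90b1, chr10:86705527-86705556, minus strand: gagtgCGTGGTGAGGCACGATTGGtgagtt
Dnajc3, chr14:118937822-118937851, plus strand: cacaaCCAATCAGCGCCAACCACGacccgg

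Mitochondrial chaperones divided by gene. Hspd1 rose in polysomal RNA, from 675, 572 and 624 CPM in mock to 1303, 1018 and 816 CPM in METTL7A1 cells, and had 594, 443 and 557 CPM and 519, 433 and 347 CPM in sub-polysomal RNA. The polysomal groups did not overlap and the sub-polysomal ones did, with log2 changes of 0.75 (standard error 0.19, adjusted p = 0.00993) and -0.29 (adjusted p = 0.249). The polysomal call was lost without METTL7A1 replicate D (0.56, adjusted p = 0.0681), the highest library, and without E (0.76, adjusted p = 0.0520). Hspa9, the mitochondrial HSP70 of the import motor, had 553, 448 and 493 CPM in mock and 1019, 813 and 557 CPM in METTL7A1 polysomal RNA (0.68, adjusted p = 0.0283). Its replicate F nearly reached the mock values, and the call was lost without mock replicate B (0.61, adjusted p = 0.109) or C (0.67, adjusted p = 0.0615) or METTL7A1 replicate D (0.46, adjusted p = 0.159) or E (0.66, adjusted p = 0.118). Dnajc19 rose in sub-polysomal RNA, from 79.6, 90.3 and 75.4 CPM to 125, 149 and 137 CPM (0.75, adjusted p = 0.0104), a call lost without replicate E (0.69, adjusted p = 0.0657). Hspe1 did not pass between genotypes in either pool (-0.20 and -0.26), nor did Dnaja3 (Tid1), a partner of Hspa9 (-0.19 and -0.012). Dnajc15, an import motor J protein, passed in polysomal RNA without mock replicate A alone (adjusted p = 0.00300).

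Hspd1 and Hspe1, whose proteins work as 1 complex, lie head to head on chromosome 1 of GRCm38 (chr1:55077835-55088024 on the minus and chr1:55088132-55091307 on the plus strand). In mock cells the log2 pool ratio was 0.23 for Hspd1 (95% interval -0.16 to 0.63, adjusted p = 0.325), which did not pass, and -2.10 for Hspe1. In METTL7A1 cells both passed, with 1.27 for Hspd1 (adjusted p = 1.78e-05) and -2.15 for Hspe1. In RPKM, Hspd1 was at 0.133 to 0.297 times the level of Hspe1 in the 3 mock sub-polysomal libraries and at 0.137 to 0.213 times in the METTL7A1 ones. In polysomal RNA it was at 0.709 to 1.28 times in mock and at 1.42 to 2.34 times in METTL7A1 libraries. Their coding sequences have 1719 and 306 bases. Of their 50-base stretches, 44.8% of Hspd1 and 36.1% of Hspe1 occur in other genes of the annotation, which leaves both levels and their ratio uncertain. The interval between them holds 1 core of the heat shock element, shown here as it is read toward Hspe1, because the same letters lie before the start of both genes.
Hspe1, chr1:55088053-55088082, plus strand: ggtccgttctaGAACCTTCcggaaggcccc

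That core, GAANNTTC on either strand, was found in 16 of 69 members with a promoter sequence and in 9.04% of 27025 genes. Among the members with it were Hspb8 and Hspa1b, which rose in both pools, Dnajc27, which fell in both, Hspb1, which was at 0, and Cct2, Dnaja1, Dnaja4, Dnajb6 and Hsph1, which did not pass between genotypes in either pool, other than Dnaja4 in sub-polysomal RNA with RLE factors or at least 10 counts in every library, Dnaja1 in polysomal RNA without mock replicate A (adjusted p = 0.0293), and Cct2 and Hsph1 as given above. The matches of Hspb8, Hspa1b and Cct2 are given for comparison, with the core in capitals.
Hspb8, chr5:116422844-116422873, minus strand: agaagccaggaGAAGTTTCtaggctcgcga
Hspa1b, chr17:34959324-34959353, minus strand: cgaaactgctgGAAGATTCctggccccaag
Cct2, chr10:117063399-117063428, minus strand: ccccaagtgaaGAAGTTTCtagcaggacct

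Of the 11 members chosen as heat shock inducible, 9 were tested, 2 rose and 1 fell in polysomal RNA and 2 rose and 1 fell in sub-polysomal RNA. Among all genes tested, 9.69% rose and 8.28% fell in polysomal RNA, and 16.8% rose and 14.5% fell in sub-polysomal RNA. The list included Hspa8, which is named above as the constitutive HSP70. Those that rose were Hspa1b in both pools, Hspd1 in polysomal and Dnajb1 in sub-polysomal RNA, and the gene that fell was Hspa4l. The median log2 change of the 9 was 0.042 (polysomal) and -0.29 (sub-polysomal).

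**Figure D4:**
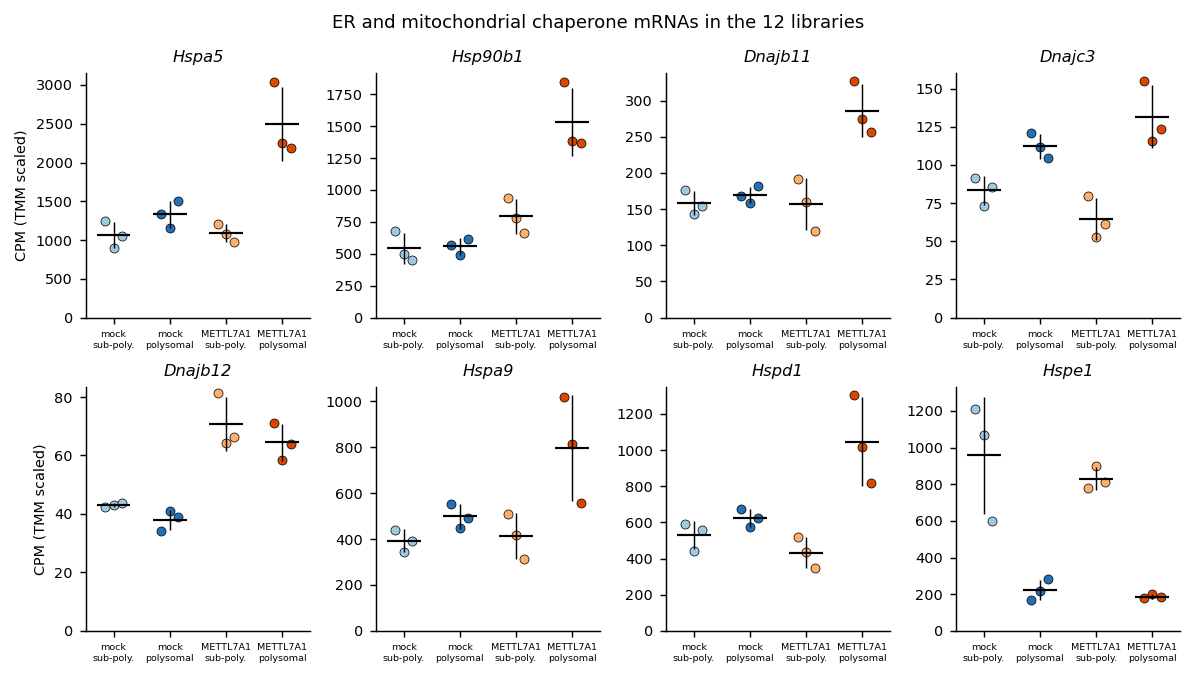
Level in CPM (vertical axes, each from 0) of 5 ER and 3 mitochondrial chaperone mRNAs in the 4 groups, 1 point a library, with the mean as a horizontal line and the SD (n = 3) as a vertical line. Hspa5, Hsp90b1, Dnajb11 and Hspd1 are highest in METTL7A1 polysomal RNA, Dnajb12 is higher in both METTL7A1 pools, and Hspe1 is low in the polysomal pools of both genotypes.

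Among the 10 tested J proteins and named proteins outside these groups, 1 rose and 3 fell in polysomal RNA and 3 rose and 5 fell in sub-polysomal RNA. The shares of all genes tested were 9.69% and 8.28% in polysomal RNA and 16.8% and 14.5% in sub-polysomal RNA. Dnajc8, a splicing-associated J protein, had 191, 153 and 131 CPM in mock and 92.8, 88.8 and 98.3 CPM in METTL7A1 sub-polysomal RNA (-0.75, adjusted p = 7.45e-04), and 165, 139 and 152 CPM and 113, 108 and 108 CPM in polysomal RNA (-0.48, adjusted p = 0.0230). Dnajc9, a histone chaperone, fell from 125, 108 and 97.1 CPM to 64.3, 71.2 and 65.3 CPM in sub-polysomal RNA (-0.71, adjusted p = 8.13e-04) and also fell in polysomal RNA (-0.53, adjusted p = 0.00837). Dnajc27, a Rab-like GTPase with a J domain, fell in sub-polysomal (-1.10, adjusted p = 2.94e-04) and polysomal RNA (-0.57, adjusted p = 0.0363). All 3 had METTL7A1 values below mock in each pool, those of Dnajc27 being 33.9, 36.5 and 30.0 CPM against 14.6, 13.6 and 17.9 CPM in sub-polysomal RNA. The polysomal falls were lost with Actb scaling (Dnajc8, adjusted p = 0.158, Dnajc9, adjusted p = 0.0870, and Dnajc27, adjusted p = 0.108) and without METTL7A1 replicate D (adjusted p = 0.0694, 0.0612 and 0.0845). That of Dnajc27 was lost also with limma-voom (adjusted p = 0.0523) and without mock replicate B (adjusted p = 0.135) or C (adjusted p = 0.131). Those of Dnajc8 and Dnajc27 were lost also without E (adjusted p = 0.119 and 0.0918) or F (adjusted p = 0.0869 and 0.133). Dnajc22, a membrane J protein, rose in both pools, from 18.6, 30.2 and 23.1 CPM to 46.8, 36.7 and 32.5 CPM in sub-polysomal RNA (0.65, adjusted p = 0.0109) and from 18.6, 20.2 and 23.2 CPM to 34.2, 28.4 and 30.5 CPM in polysomal RNA (0.58, adjusted p = 0.0196). Without replicate D it passed in neither pool (adjusted p = 0.0708 and 0.0786), and without E not in polysomal RNA (adjusted p = 0.0558). Dnajc21, a factor of ribosome biogenesis, fell in sub-polysomal RNA (-0.59, adjusted p = 0.0185), lost with Actb scaling (adjusted p = 0.203) and without replicate A (0.0918) or D (0.0846) or E (0.117), and so did Hspbap1 (-0.73, adjusted p = 0.0111), lost with Actb scaling (adjusted p = 0.107).

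The third question was whether the polysomal to sub-polysomal ratio itself differed between genotypes. The shift, the log2 ratio in METTL7A1 minus that in mock cells, was above 0 for 47 of 65 members and for 6036 of all 12224 genes tested. The medians were 0.19 and -0.0079. With Actb scaling it was above 0 for 39 members, with medians of 0.056 and -0.17, and the number of all genes above 0 is not given. None of the members and 0% of the genes tested passed an adjusted p-value of 0.05 with edgeR. At an unadjusted p-value below 0.05, 17 members shifted toward polysomes, where 6.70% of all genes did, and 3 away from them, where 8.93% did. DESeq2 called 8 members at an adjusted p-value below 0.05 and limma-voom 0. The share of all genes that DESeq2 called is not given here, so these 8 cannot be set against a background. The 3 highest shifts were those of Hspd1 (1.04, 95% interval 0.48 to 1.60, adjusted p = 0.122), Hsp90b1 (0.90, adjusted p = 0.138) and Hspa5 (0.88, adjusted p = 0.137). Hspa13 (0.83, adjusted p = 0.150) and Dnajc1 (0.77, adjusted p = 0.138) came next. Tcp1 (0.77, adjusted p = 0.114), Dnajb11 (0.76, adjusted p = 0.138), Dnajc7 (0.70, adjusted p = 0.132) and Cct6a (0.66, adjusted p = 0.142) were among the others with unadjusted intervals above 0. DESeq2 called Hspd1, Hsp90b1, Hspa5, Tcp1, Dnajb11, Dnajc7, Cct6a and Dnajc17, with adjusted p-values from 5.73e-04 to 0.0468. Without mock replicate A edgeR called Tcp1, Cct6a, Dnajc7 and Cct5.

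By the values given above, Hspa5, Dnajb11 and Hspd1 passed between genotypes in polysomal RNA alone, Cct6a, Tcp1, Cct5 and Dnajc7 in sub-polysomal RNA alone, and Hsp90b1 in both. All 8 TRiC shifts were above 0, from 0.23 to 0.77 with a median of 0.42, also with Actb scaling, and 13 of 14 ER shifts were, with a median of 0.35, or 10 of 14 with Actb scaling. Of all genes 6036 of 12224 were above 0 with TMM scaling. Of the 7 members chosen as inducible by the unfolded protein response 7 were above 0, with a median of 0.76 (TMM scaling). The 3 lowest shifts at a mean of at least 5 CPM were those of Dnajc17, a splicing-related J protein (-0.85, adjusted p = 0.132), Hspbp1, a nucleotide exchange factor of HSP70 (-0.60, adjusted p = 0.233), and Dnajc4 (-0.51, adjusted p = 0.325). Dnajc17 had 16.4, 29.0 and 28.2 CPM in mock and 42.8, 41.9 and 41.8 CPM in METTL7A1 sub-polysomal RNA (0.73, adjusted p = 0.00387), with 14.2, 15.1 and 18.1 CPM and 13.6, 14.1 and 16.2 CPM in polysomal RNA. Its METTL7A1 sub-polysomal libraries were high and nearly equal, and the polysomal ones overlapped mock. Dnajc4 had 18.6, 24.2 and 19.3 CPM and 31.8, 30.3 and 29.9 CPM in sub-polysomal RNA (0.56, adjusted p = 0.0155), a rise lost without replicate C (adjusted p = 0.0823) or D (0.0520) or E (0.0550). Hspbp1 had 46.8, 51.6 and 40.3 CPM and 79.3, 64.5 and 47.3 CPM there (0.46, adjusted p = 0.0509) and passed under 6 alternatives, among them without mock replicate B (adjusted p = 0.0463) and METTL7A1 replicate F (adjusted p = 0.0126). Across 63 members the shift had a Spearman's rho of 0.610 with coding length, and across 10842 genes 0.187. Of the 9 members under 600 coding bases 3 had a shift above 0, of 21 from 600 to 1200 bases 12, of 18 from 1200 to 1800 bases 17 and of 15 from 1800 bases on 14. Median shifts in these classes were -0.13, 0.063, 0.44 and 0.44, beside -0.25, -0.018, 0.061 and 0.086 for all genes.

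**Figure D5:**
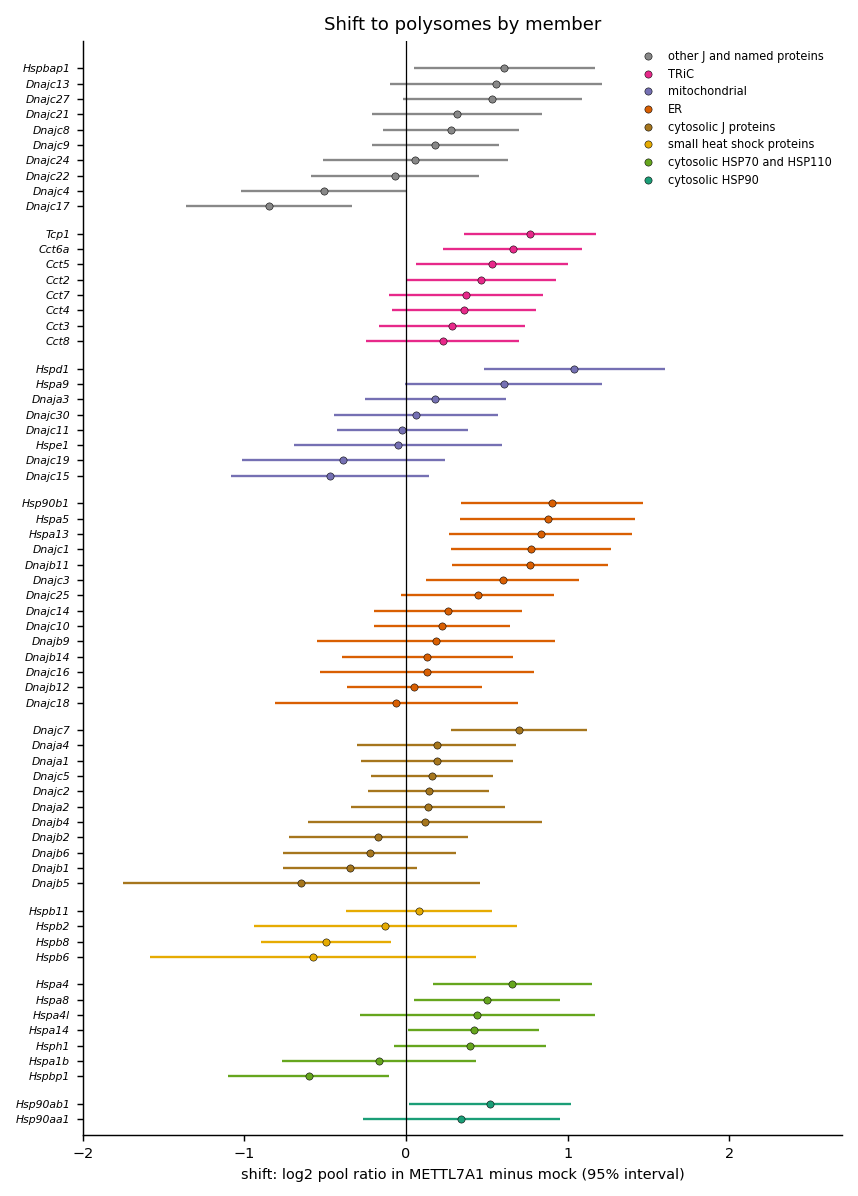
Shift (horizontal axis, log2 polysomal to sub-polysomal ratio in METTL7A1 minus that in mock cells) of the members tested except 1 that is not shown, ordered within each group, with points for the estimate and lines for its unadjusted 95% interval from edgeR's fit. All TRiC and 13 of 14 ER points lie above 0 (10 of 14 with Actb scaling), and Hspd1, at 1.04, lies highest.

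The partners of these chaperones were read from lists of other genes. Among all genes tested with edgeR, 9.69% rose and 8.28% fell in polysomal RNA, and 16.8% rose and 14.5% fell in sub-polysomal RNA. Of 9 prefoldin and TRiC cofactor genes, 4 rose in sub-polysomal RNA and 0 changed in polysomal RNA with edgeR, where 1 had an unadjusted p-value below 0.05 and DESeq2 and limma-voom called 0. The 4 were the prefoldin subunits Pfdn1 (1.02, adjusted p = 0.00153), Pfdn5 (0.87, adjusted p = 0.00159), Pfdn4 (0.83, adjusted p = 0.00346) and Pfdn6 (0.60, adjusted p = 0.0116), which hand clients to TRiC. The call of Pfdn6 was lost without replicate C (adjusted p = 0.0761) or D (0.0561) or E (0.0657). Of 18 ER partners, 9 rose and 1 fell in polysomal RNA and 6 rose and 4 fell in sub-polysomal RNA. Sdf2l1, a cofactor of BiP, rose by 1.69 (adjusted p = 8.88e-07) in sub-polysomal and 1.19 (adjusted p = 1.93e-05) in polysomal RNA, the secreted factor Manf by 1.07 (adjusted p = 2.28e-04) and 0.97 (adjusted p = 8.80e-04), Creld2 by 1.02 (adjusted p = 2.26e-04) in polysomal RNA and the lectin chaperone Calr by 0.87 (adjusted p = 0.00213) there. Ern1, the sensor IRE1, fell in sub-polysomal (-0.96, adjusted p = 0.00254) and polysomal RNA (-0.54, adjusted p = 0.0342), the latter lost with Actb scaling (adjusted p = 0.129) and without replicate A (0.0623) or B (0.0792) or E (0.128) or F (0.186). In sub-polysomal RNA the translocon protein Sec63 fell (-0.91, adjusted p = 3.90e-04), as did Pdia6 (-0.56, adjusted p = 0.0187), lost with Actb scaling (adjusted p = 0.279) and without replicate E (0.0760) or F (0.0933), and Herpud1 (-0.41, adjusted p = 0.0419), lost with Actb scaling (adjusted p = 0.588), without the filter on low counts (0.108), in a fit of the groups compared alone (0.0569) and without replicate B (0.113) or C (0.183) or E (0.126) or F (0.185).

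Of 20 co-chaperones and heat shock regulators, 2 rose and 2 fell in polysomal RNA and 5 rose and 3 fell in sub-polysomal RNA. Among all genes tested, 9.69% rose and 8.28% fell in polysomal RNA, and 16.8% rose and 14.5% fell in sub-polysomal RNA. The same edgeR shares stand beside the mitochondrial partners below. Ahsa1, which activates the ATPase of HSP90, fell in sub-polysomal (-1.14, adjusted p = 2.24e-05) and polysomal RNA (-0.47, adjusted p = 0.0243), the latter lost with Actb scaling (adjusted p = 0.178) and without replicate D (0.0759) or E (0.0951) or F (0.108). The HSP70 exchange factors Bag2 (-0.66, adjusted p = 0.00180) and Bag5 (-0.51, adjusted p = 0.00973) fell in sub-polysomal RNA, lost with Actb scaling (adjusted p = 0.0701) for Bag2 and with Actb scaling (adjusted p = 0.273) and without replicate E (0.0566) for Bag5. Hsf1 rose there by 0.89 (adjusted p = 3.36e-04), with 0.32 (adjusted p = 0.169) in polysomal RNA, and Sgta (0.63, adjusted p = 0.00223) and the ubiquitin ligase Stub1 (0.61, adjusted p = 0.00524) rose there as well. Serpinh1 (HSP47), the collagen chaperone of the ER, rose by 0.77 (adjusted p = 0.00123) in polysomal RNA and by 0.53 (adjusted p = 0.0119) in sub-polysomal RNA, the latter lost without replicate D (adjusted p = 0.0951). Of 8 mitochondrial partners, 2 rose in polysomal RNA, 3 rose in sub-polysomal RNA and 0 fell with edgeR, DESeq2 or limma-voom, with 0 and 1 lower at an unadjusted p-value below 0.05. Pam16 of the import motor rose by 1.24 (adjusted p = 9.08e-05) in sub-polysomal and 0.69 (adjusted p = 0.0152) in polysomal RNA, the latter lost without replicate E (adjusted p = 0.0771) or F (0.0649), and the protease Clpp rose by 0.82 (adjusted p = 3.90e-04) in sub-polysomal RNA. The exchange factor Grpel2 rose there by 0.41 (adjusted p = 0.0337), lost with DESeq2 (adjusted p = 0.0581), without the filter on low counts (0.103), in a fit of the groups compared alone (0.0827) and without replicate A (0.0718) or C (0.173) or D (0.0921) or E (0.0925) or F (0.0808), and the import motor subunit Timm44 rose in polysomal RNA by 0.43 (adjusted p = 0.0332), lost without the filter on low counts (adjusted p = 0.0729) and without replicate B (0.108) or D (0.173) or E (0.105) or F (0.0507).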

How the data were processed

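The deposited count file held raw counts per gene in 12 columns, 1 a library. The authors made the counts from rRNA-depleted stranded libraries with STAR 2.5.3a, on mm10, and featureCounts with an Ensembl GRCm38 annotation, after trimming with BBDuk; the submitters' notes also name bcl2fastq 2.20.0.422 and R 3.5.1, and the strand and multi-mapping settings are not given in the sources used here. The gene lengths in that file, also deposited by the authors, served for RPKM. Members, lists and tests were chosen with earlier results of these data known, and the lists support nothing by themselves.

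The 12224 genes that reached 1 CPM in 3 or more libraries were fitted in 1 model of the 4 groups with edgeR 4.0.16 (R 4.3.3), with TMM factors, the quasi-likelihood test and Benjamini-Hochberg adjustment over all of these genes. Polysomal was set against sub-polysomal RNA in each genotype, METTL7A1 against mock in each pool, and the shift was the interaction. The script was tested on simulated counts. Alternatives were DESeq2 1.42.0, limma-voom (limma 3.58.1), RLE factors, Actb scaling, no filter, at least 10 counts in every library, the groups compared alone, the study's limits, a replicate block and each replicate left out with its libraries of both pools. Values by library are given for the most abundant member of each group, its up to 4 largest genotype changes past the threshold at a mean of at least 5 CPM, the 3 TRiC subunits with the largest changes, and the 3 highest and lowest pool ratios and shifts. Of partner lists, at most 4 genes up and 4 down are named. Other members are named for their role or level, chosen after their values were seen. Replicates of 1 group differed by more than sampling noise (chi-square per gene 5.98 to 25.9). Same-lettered libraries of both pools did not deviate together in every pair (correlation from -0.292 to 0.107), so the letters were not used as pairs. The values of 1 member are not reported here by name, although it is in the counts.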

Additional observations from a re-analysis of the deposited data

How the results depend on the processing

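No result changed its direction while it was called, under any alternative. At the study's stricter limits 3 members changed between pools in mock and 11 in METTL7A1 cells, and 1 differed between genotypes in polysomal and 2 in sub-polysomal RNA. With both libraries of 1 replicate letter left out, the count was 30 to 37 between pools in mock, 41 to 48 in METTL7A1 cells, 11 to 26 for METTL7A1 against mock in polysomal RNA, and 17 to 26 in sub-polysomal RNA. For the shift it was 0 to 4, and it was 8 with DESeq2 and 1 without the filter on low counts (Hspd1). The causes were not tested. For the fits with replicates left out, with DESeq2 or without the filter, shares of all genes are not given. Those counts cannot be set against a background. With the letters as a replicate block the counts were 37 between pools in mock, 47 in METTL7A1 cells and 0 for the shift, as without the block, and no paired fit was possible between genotypes because they share no letter. Of the values of single genes under alternatives, 5488 kept their side of the threshold. Those of them not called moved by less than their standard error, and no limit was set on how far called ones moved. Another 219 lost the call, 81 gained it, and 103 that were not called moved by more than their standard error. Low counts limit members such as Hspb2, Hspa1b and Dnajb4, with 343, 652 and 743 counts over the 12 libraries.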

Other observations

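Of the 20 members that were not tested, Dnajc6 and Hspa2 had over 20 counts in all and few or none of them in METTL7A1 cells. Dnajc6, the auxilin that uncoats clathrin vesicles with HSP70, had 8 counts in mock sub-polysomal, 21 in mock polysomal and 0 in METTL7A1 libraries of both pools. Hspa2, a testis HSP70, had 6 and 14 counts in the mock pools and 0 and 2 in the METTL7A1 pools. In the edgeR fit without the filter on low counts, Dnajc6 was lower in METTL7A1 polysomal (adjusted p = 8.92e-04) and sub-polysomal RNA (adjusted p = 0.0203). Hspa2 passed in neither pool there (adjusted p = 0.141 and 0.0639). Both genes were chosen after their values were seen, and such counts carry little precision.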
